A study of Homo sapiens with 10 samples.

Results

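The 10 genes described here make, move and store catecholamines, and they were chosen by name. TH, DDC and DBH encode enzymes of noradrenaline synthesis, and GCH1 encodes the enzyme that opens the synthesis of the cofactor of TH. SLC18A1, SLC18A2 and SLC6A2 encode transporters, and CHGA, CHGB and SCG2 encode granins, the proteins of the secretory granule. All poly(A) 3′-seq peaks with a summit inside the GENCODE 44 body of a gene of the set, or up to 600 bp past its 3′ end, were taken from the peak list of the study. They were 49 of the 178837 peaks in the list, and the 10 genes were compared with the 20033 protein-coding genes of the annotation, 15472 of which held a peak.

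The peaks came from the human neuroblastoma line IMR-32, transduced with lentiviral pLKO.1 shRNA vectors and selected with puromycin for 2 days. In all there were 10 libraries, 4 from cells expressing shCDK12 (sh22 and sh98, 2 libraries each), 4 from cells expressing shCDK13 (sh701 and sh704, 2 libraries each) and 2 from cells expressing shGFP, the control. CDK12 and CDK13 are kinases of the RNA polymerase II tail, and the study asked whether their loss moves cleavage and polyadenylation into introns. The authors merged the reads of all libraries before peaks were called, and the list has no value per library. The shCDK12, shCDK13 and shGFP cells therefore cannot be told apart in any value below, and no spread between replicates can be given. The libraries had been downsampled to the size of the smallest, and that size is not given in the sources used here.

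Catecholamines are made from tyrosine, which tyrosine hydroxylase turns into DOPA in the rate-limiting step. DOPA decarboxylase then gives dopamine, and dopamine β-hydroxylase turns dopamine into noradrenaline inside the granule, where vesicular monoamine transporters have carried it. Granins are acidic proteins packed with the amines in dense-core granules and are used as tumour markers, and sympathetic neuroblastoma is known for making and secreting catecholamine metabolites.

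At their annotated 3′ ends 9 of the 10 genes held a peak, and SLC18A2 was the exception. Among all protein-coding genes 68.7% held such a peak. CHGA and SCG2 had the highest end peaks of the set. SLC6A2 came next through a peak 2250 bp before its canonical end, and its peak at that end was lower. The 3 synthesis enzymes and GCH1 lay near or below the median of all genes, and SLC18A1 was lowest. SLC6A2 and GCH1 held 9 intronic peaks each, in 43.6 and 57.9 kb of intron. In TH, SLC18A1 and SCG2, with 4.71, 34.4 and 2.85 kb of intron, no peak lay in an intron, and in introns as short as those of TH and SCG2 a count of 0 shows no difference in density. A-rich genomic sequence followed 61.3% of the intronic peaks of the 10 genes, against 66.8% of those of all protein-coding genes. CHGA differed in having a high peak in intron 4 with no A-rich sequence beside it.

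The height of a peak is given as its pileup, the number of reads extended to 100 bp that cover the summit in the pooled libraries, which was recovered from the fold and p-value of the peak. The 95% interval beside a pileup is an exact Poisson interval, which treats the pileup as a count of independent reads. It covers counting error at most, since reads carried no molecular identifiers and pileups count distinct read positions. Where intervals are said below to overlap or lie apart, this describes pileups and does not test RNA amounts. Reads of this assay come from the end of a polyadenylated RNA, or from A-rich stretches inside a transcript. They do not cover its whole length, so pileups were not divided by gene length. Pileups count distinct read positions and so level off, and the highest value in the list was 200. At the ends of protein-coding genes the highest was 114, and the level at which end peaks level off was not tested. Pileups therefore give a rough order of transcript ends and no ratio of RNA amounts. In such pooled RNA, fewer expressing cells and less RNA per cell cannot be told apart.

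Markers of the labelled cell type and of other cell types were read at their annotated ends. Among all protein-coding genes 68.7% had an end peak, with a median pileup of 23, so an end peak alone does not set a marker apart. All 6 sympathoadrenal markers had an end peak, among them 16 for ISL1, 46 for HAND2, 60 for GATA3, 73 for MYCN and 114 for PHOX2A, the last of which was the highest of all protein-coding genes. Of the 5 mesenchymal markers 4 had an end peak, from 16 for YAP1 to 36 for VIM, and PRRX1 had none. Of the 4 Schwann cell markers 3 had an end peak, none above 14. STAR, at 11, was the single marker of adrenal cortex among 4 with an end peak. CHAT, the enzyme of acetylcholine synthesis, had an end peak of 32 and the vesicular acetylcholine transporter SLC18A3 had 15, while ACHE had none.

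**Figure D1:**
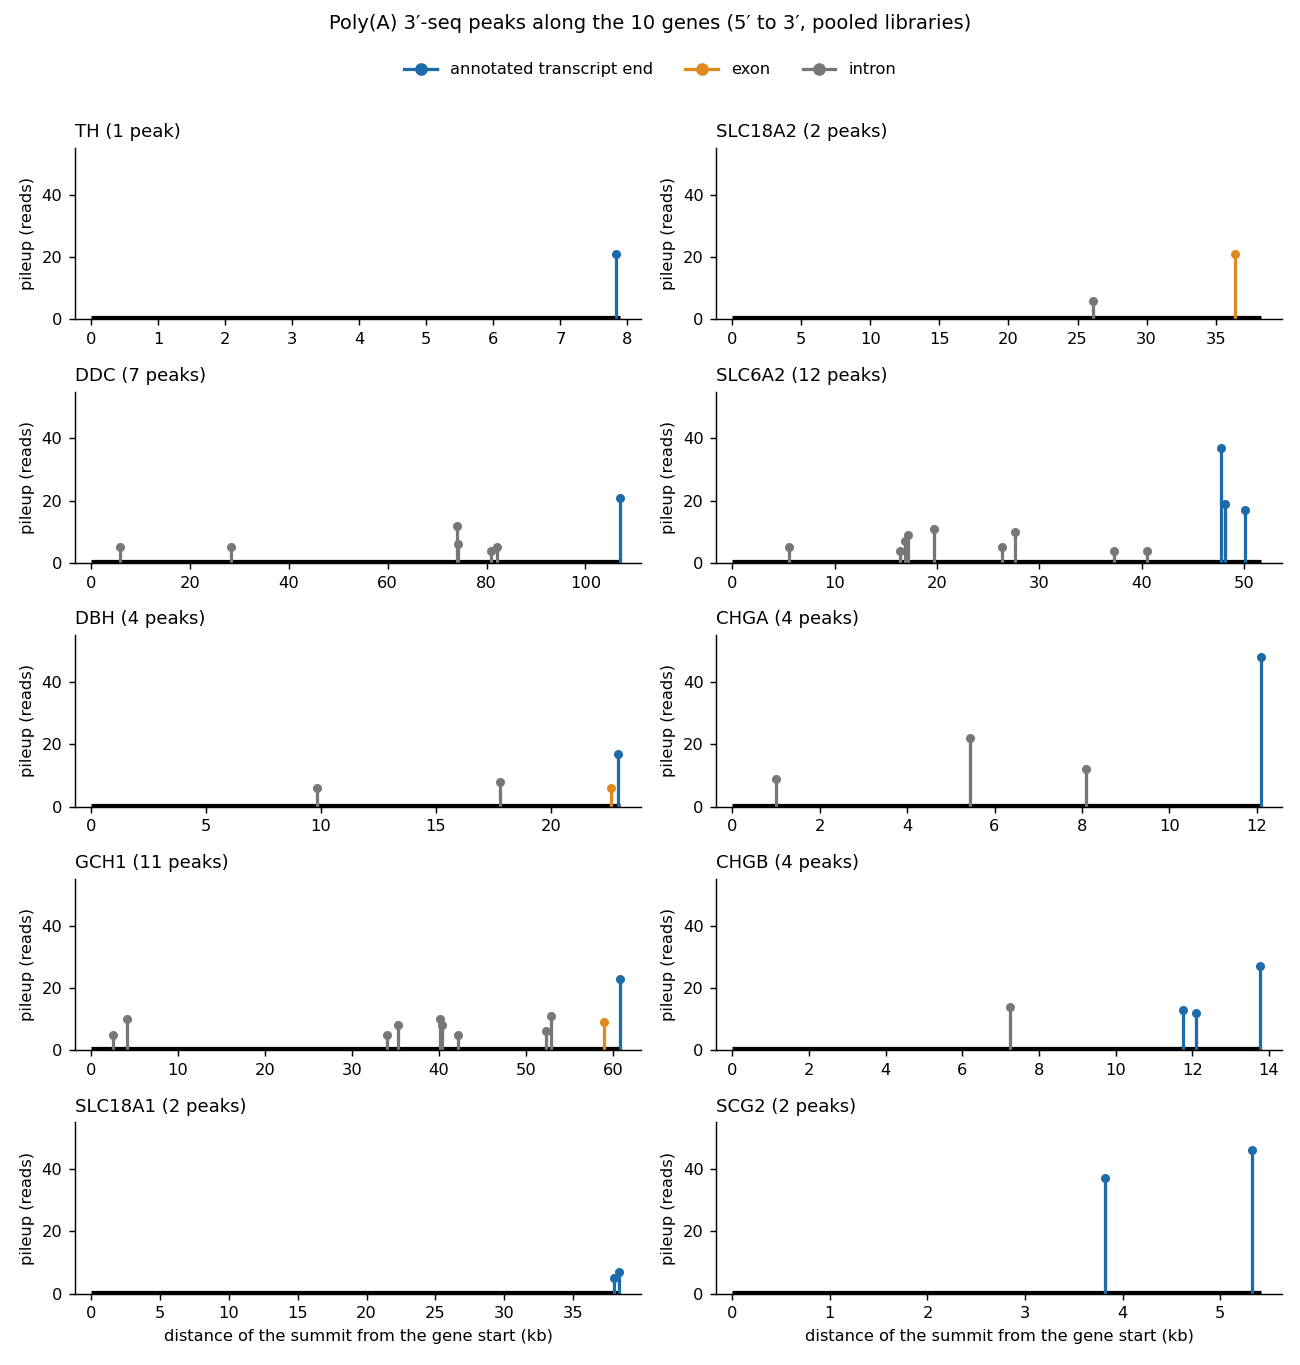
Each panel shows a gene from its start to its end on its own strand, with the distance of the peak summit from the gene start in kb on the horizontal axis and the pileup at the summit in reads of the pooled libraries on the vertical axis. Blue marks peaks at an annotated transcript end, orange peaks in exons and grey peaks in introns; TH holds a peak at its end alone, while SLC6A2 (12 peaks), GCH1 (11 peaks) and DDC (7 peaks) hold intronic peaks along the gene body.

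A peak was assigned to an annotated end where its summit lay from 200 bp upstream to 600 bp downstream of the end of any transcript of the gene, then to exons, then to introns. Of the 49 peaks 15 lay at an annotated end (30.6%, 95% Wilson interval 19.5 to 44.5), 3 in other exonic sequence and 31 in introns (63.3%, 49.3 to 75.3). Among 162226 peaks of all protein-coding genes, 18.8% lay at an end and 70.9% in introns. The interval of the intronic share holds the share over all genes, and that of the end share lies above it. The end peaks include 3 in coding sequence, counted as ends because transcripts annotated with incomplete 3′ ends stop there. The end share without them was not compared. Peaks of the same gene share its transcription, so they are not independent, and these intervals cover counting error only.

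The cleavage sites of the genes can be read from the genome beside the peaks. Reads of this assay that come from a poly(A) tail start at the cleavage site and were extended into the transcript. The edge of such a peak toward the 3′ end of the gene therefore lies near the site. At the 9 genes with a peak at the end of the Ensembl canonical transcript, the edge lay within 10 bp of that end in 7, with a median distance of 4 bp, which was also the median over 11883 protein-coding genes. The sequences below are the last 30 bases of GRCh38 before that edge, 5′ to 3′ on the strand of the gene, and are shown because they hold the cleavage signal of each transcript. Capitals mark the poly(A) signal AATAAA, or TATAAA in GCH1, where AATAAA was not found. Variant signals nearer to the edge, such as AAGAAA in TH, were not marked. For CHGA the stretch ends 11 bases before the edge, since its signal lies farther away. For SLC6A2 the strongest of its end peaks is shown, which has no signal. The stretches lie at chr11:2163926-2163955 (minus strand, TH), chr7:50458438-50458467 (minus, DDC), chr9:133659305-133659334 (plus, DBH), chr14:54841963-54841992 (minus, GCH1), chr16:55703913-55703942 (plus, SLC6A2), chr14:92935263-92935292 (plus, CHGA), chr20:5925333-5925362 (plus, CHGB) and chr2:223596944-223596973 (minus, SCG2). All lie at the ends of annotated 3′ UTRs, apart from the GCH1 stretch, which lies wholly past the annotated end, and the SLC6A2 stretch, which lies inside the canonical 3′ UTR.
TH: tcacAATAAAagaaactgtggtctctacac
DDC: atgcctAATAAAcaattcaagtgaaatact
DBH: AATAAAgctcacacttgggctggcacccac
GCH1: tcaaccaccacTATAAAtatttaaataact
SLC6A2: ctgggtcggggtcctcaggtcattctatag
CHGA: AATAAAtctgttctgggctctttcctctga
CHGB: aatAATAAAagattcacctgagaccaaaag
SCG2: ttactgttgattAATAAAtgttatttctgg

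The main signals, AATAAA and ATTAAA, were searched on the strand of the gene with their start 10 to 40 bp upstream of the 3′ edge. They were found at 8 of the 9 peaks at canonical ends (88.9%, 56.5 to 98), against 66.3% of such peaks over all protein-coding genes. The exception was GCH1, whose site held TATAAA, a variant signal, 18 bp upstream. The interval holds the share over all genes, and canonical ends alone were a setting added after the data were seen. Over all 15 end peaks the count was 10 (66.7%, 41.7 to 84.8), against 48.4% of the 30419 end peaks of all genes, a share that the interval holds. The signals started at a median of 25.5 bp upstream of the edge, from 17 bp at SCG2 to 40 bp at CHGA.

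Of the synthesis enzymes, TH (ENSG00000180176, chr11:2163929-2171815, minus strand), which encodes tyrosine hydroxylase, held 1 peak. It had a pileup of 21 (13 to 32.1), a −log10 q of 28.7, and a 3′ edge 3 bp past the annotated end. No other peak of the list had its summit in the 7.89 kb of the gene. TH was the simplest gene of the set, with a single end and no intronic peak.

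DDC (ENSG00000132437, chr7:50458436-50565405, minus strand) encodes the decarboxylase that acts on DOPA and is, at 107 kb, the longest gene of the set. Its end peak had the same pileup as that of TH, 21 (13 to 32.1), with an edge 4 bp past the canonical end. It also held 6 intronic peaks, with pileups of 5, 5, 12, 6, 4 and 5 from the start of the gene to its end.

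DBH (ENSG00000123454, chr9:133636363-133659329, plus strand), the gene of dopamine β-hydroxylase, had the lowest end peak of the 3 enzymes, at 17 (9.9 to 27.2), with its edge 5 bp past the end. A second, lower peak of 6 (2.2 to 13.1) lay in the same 3′ UTR with its edge 303 bp before that end and with the variant signal AGTAAA 22 bp upstream. The intervals of TH, DDC and DBH overlap, so their end peaks could not be ordered.

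GCH1 (ENSG00000131979, chr14:54842008-54902826, minus strand) encodes GTP cyclohydrolase, the rate-limiting enzyme of tetrahydrobiopterin synthesis. Its end peak of 23 (14.6 to 34.5) equalled the median of all protein-coding genes with an end peak. The edge lay 54 bp past the end of the canonical transcript, the largest such distance among the 9 genes, and 45 bp past the end of the gene as annotated. A further exonic peak of 9 (4.12 to 17.1) lay in the 3′ UTR with its edge 1824 bp before the end and with AATAAA 12 bp upstream. It lay outside the windows around the annotated ends of the gene.

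Among the transporters, SLC18A2 (ENSG00000165646, chr10:117241093-117279430, plus strand), the vesicular monoamine transporter of neurons and chromaffin cells, was the gene without a peak at an annotated end. It held a peak of 21 (13 to 32.1) in its 3′ UTR, 1846 bp before the end, and a peak of 6 (2.2 to 13.1) in intron 12. The list has no strand, and both peaks lie at the 3′ ends of transcripts of the other strand. The edge of the 3′ UTR peak on the minus strand lay 3 bp short of the annotated end of PDZD8, a gene of the opposite strand, with ATTAAA 23 bp upstream of it. The intronic peak lay 10 bp short of the end of a long noncoding RNA (ENSG00000277879) on the minus strand. To show this signal, the last 30 bases before the edge of the 3′ UTR peak are given on the minus strand of GRCh38, chr10:117277277-117277306, with the signal in capitals.
SLC18A2 3′ UTR peak, minus strand: tatacaATTAAAcactttgatgatttttga

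On its own strand this peak had no AATAAA or ATTAAA in the same window, and held TATAAA 32 bp upstream of the edge. Which strand the reads came from was not tested, because the list does not hold it. No peak of SLC18A2 can therefore be assigned to the gene from these data.

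SLC18A1 (ENSG00000036565, chr8:20144855-20183206, minus strand), the vesicular monoamine transporter of endocrine cells, held the lowest end peaks of the set. Its peaks had pileups of 7 (2.81 to 14.4) at the canonical end and 5 (1.62 to 11.7) 331 bp before it, both in the 3′ UTR and both with AATAAA, 22 and 26 bp upstream of their edges. Of all protein-coding genes with an end peak, 3.82% had a strongest end peak below this level. Its interval ends below those of CHGA, SCG2, SLC6A2, CHGB and GCH1, and overlaps those of TH, DDC and DBH.

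SLC6A2 (ENSG00000103546, chr16:55655988-55707645, plus strand), the noradrenaline transporter that takes the amine back into the cell, held 12 peaks, the most of the set. It had 3 end peaks, all inside the 3′ UTR of the canonical transcript. The upstream peak was the highest at 37 (26.1 to 51), with its edge 151 bp past the annotated end of a shorter transcript and 2250 bp before the canonical end. The middle peak reached 19 (11.4 to 29.7), 427 bp past the same shorter end. The peak at the canonical end was the lowest at 17 (9.9 to 27.2), with its edge at the annotated base.

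The 3 sites of SLC6A2 differ in sequence, and their last 30 bases before the edge are given for that reason, from chr16:55703913-55703942, chr16:55704189-55704218 and chr16:55706163-55706192 of GRCh38 on the plus strand. Capitals mark AATAAA.
SLC6A2 upstream: ctgggtcggggtcctcaggtcattctatag
SLC6A2 middle: tgtttgtAATAAAgcactttaatgcacatt
SLC6A2 canonical end: aatAATAAAtaatgtttcctgggctgtgta

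The middle and canonical sites held AATAAA 22 and 26 bp upstream. At the upstream site neither of the main signals nor any other of the 12 hexamers of the study was found within 100 bp of the edge, and 6 of the 10 genomic bases past the edge were A. The order of SLC6A2 within the set thus rested on this peak. By its canonical end alone its value was 17, equal to that of DBH, and by the sum of its end peaks it was 73.

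Of the granins, CHGA and SCG2 had the highest end peaks of the set, and CHGB lay below SLC6A2. CHGA (ENSG00000100604, chr14:92923150-92935285, plus strand), chromogranin A, reached 48 (35.4 to 63.6) with a −log10 q of 50.7, and its edge lay 18 bp past the annotated end. SCG2 (ENSG00000171951, chr2:223596940-223602361, minus strand), secretogranin II, reached 46 (33.7 to 61.4), with its edge 4 bp before the end. CHGB (ENSG00000089199, chr20:5911510-5925353, plus strand), chromogranin B, reached 27 (17.8 to 39.3), 9 bp past the end. Of 13761 protein-coding genes with an end peak, 92.8% lay below CHGA, 91.6% below SCG2 and 60.7% below CHGB.

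CHGB and SCG2 held further peaks that were assigned to annotated ends but lie in the coding sequence of the canonical transcript. The transcripts whose ends lie there are all annotated as having incomplete 3′ ends. In CHGB these peaks had pileups of 13 (6.92 to 22.2) and 12 (6.2 to 21), and in SCG2 the peak reached 37 (26.1 to 51), an interval that overlaps that of its canonical end. None of the 3 had AATAAA or another of the 12 hexamers of the study with its start 10 to 40 bp upstream of the edge. Within 100 bp, the distance that the study searched, the downstream CHGB peak and the SCG2 peak held a hexamer of the 12 and the upstream CHGB peak held none. The genome around their edges is shown for the lack of a nearby signal, as 40 bases of GRCh38 on the strand of the gene with the 10 bases past the edge in capitals, at chr20:5923332-5923371 (plus), chr20:5923728-5923767 (plus) and chr2:223598449-223598488 (minus).
CHGB upstream coding peak: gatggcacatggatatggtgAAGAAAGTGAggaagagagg
CHGB downstream coding peak: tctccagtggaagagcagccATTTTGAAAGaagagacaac
SCG2 coding peak: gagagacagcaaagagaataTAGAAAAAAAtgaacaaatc

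The capitals hold 6, 4 and 8 A, and the SCG2 peak was the single end peak of the set with at least 7 A there, of 15, against 20% of the end peaks of all genes. Where reads from an oligo(dT) primer come from A-rich stretches inside a transcript, they form peaks too. Whether this peak is a cleavage site was not tested.

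**Figure D2:**
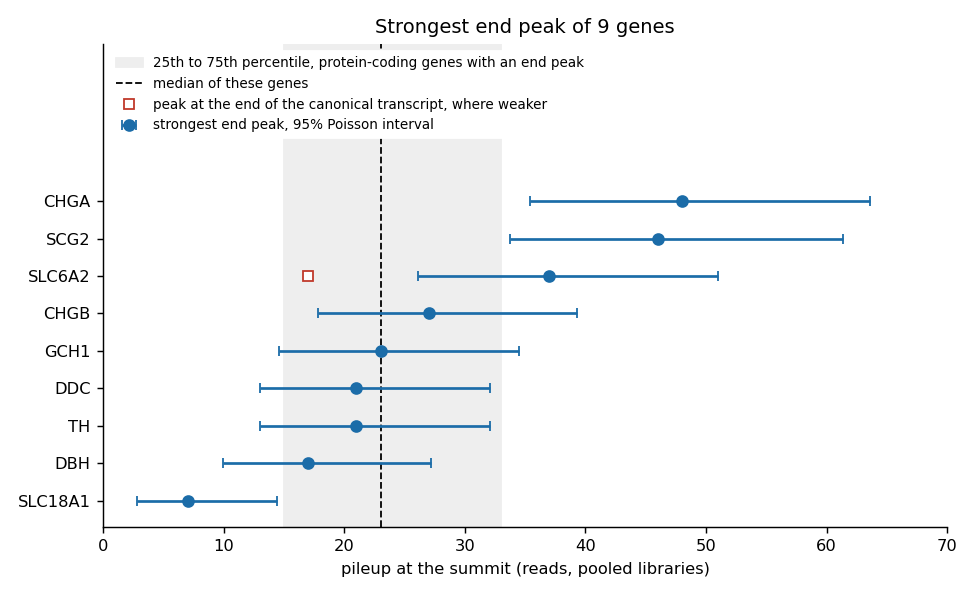
Pileup at the strongest end peak of the 9 genes that have an end peak, in reads of the pooled libraries. Bars give the 95% Poisson interval, which treats the pileup as a count of independent reads. The shaded band runs from 15 to 33, the 25th to 75th percentile of 13761 protein-coding genes with an end peak. The dashed line marks their median, 23. CHGA, SCG2 and SLC6A2 lie above the band and SLC18A1 below it, and the open square shows the canonical end of SLC6A2 at 17.

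The strongest end peaks of the 9 genes had a median pileup of 23 and ran from 7 to 48. Over all protein-coding genes with an end peak the median was also 23, with quartiles of 15 and 33 and a maximum of 114. The intervals of CHGA, SCG2, SLC6A2 and CHGB overlap each other. The interval of CHGA lies wholly above those of GCH1, TH, DDC, DBH and SLC18A1. A −log10 q of at least 20 at an end was reached by 7 of the 10 genes, against 34.5% of all protein-coding genes, and was missed by DBH, SLC18A1 and SLC18A2.

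Other genes of the same pathways were read from lists of their own. Of 11 further genes of catecholamine and cofactor metabolism, 10 had an end peak, 5 of them with a −log10 q of at least 20. Their median pileup was 20. Among all protein-coding genes 68.7% had an end peak and 34.5% had one with that −log10 q, and the median pileup was 23. QDPR, which recycles the cofactor, reached 43 (31.1 to 57.9). PNMT, which turns noradrenaline into adrenaline, was lowest at 6 (2.2 to 13.1), the dopamine transporter SLC6A3 had 7, and MAOB had no peak at all, whereas MAOA, the other monoamine oxidase, had 20.

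Of 20 further dense-core granule genes 18 had an end peak, against 68.7% of all protein-coding genes. A −log10 q of at least 20 was reached by 7 of the 20, near the 34.5% of all genes. The median pileup was 19, below the 23 of all genes with an end peak. SYT1, a calcium sensor of exocytosis, was highest at 39, followed by VGF, a granin relative, at 37 and by the neuropeptide galanin, GAL, at 35. SCG5, which encodes a chaperone of the convertase PCSK2, was lowest at 8. PCSK1, the other prohormone convertase, had no peak, and PCSK2 had 12. CADPS2, a priming factor of granule release, had intronic peaks alone, and its paralog CADPS had an end peak of 14.

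The introns of the 10 genes, 320 kb in all, held 31 peaks, 0.968 per 10 kb, against 0.907 per 10 kb over all protein-coding genes. CHGA was densest with 3.29 per 10 kb, from 3 peaks, followed by SLC6A2 with 2.06 and GCH1 with 1.55, from 9 peaks each. CHGB had 1.06 from 1 peak, DBH 0.989 from 2 and DDC 0.578 from 6. SLC18A2 had 0.292, from 1 peak that cannot be assigned to the gene. The values of CHGB, DBH, DDC and SLC18A2 lay below the median of 1.1 over protein-coding genes with an end peak. A density from 1 or 2 peaks shows no difference from that median. The genes with the most intron, DDC, GCH1 and SLC6A2, also held the most intronic peaks. Among these the number did not follow intron length, since SLC6A2 with 43.6 kb of intron held 9 peaks and DDC with 104 kb held 6.

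Intronic peaks were low. Their median pileup was 6, from 4 to 22, and 16 of the 31 lay between 4 and 6, while the median over intronic peaks of all genes was 8 and that over the end peaks of the set was 21. In every gene of the set with both kinds of peak, the strongest intronic peak was lower than the strongest end peak. The same held for most protein-coding genes with both kinds, where the upper quartile of the ratio of intronic to end pileup was 0.937. The ratio was 0.297 in SLC6A2 (11 against 37), 0.458 in CHGA (22 against 48), 0.471 in DBH (8 against 17), 0.478 in GCH1 (11 against 23), 0.519 in CHGB (14 against 27) and 0.571 in DDC (12 against 21). All 6 ratios lay below 0.625, the median over 10374 protein-coding genes, but that of SLC6A2 rested on its upstream end peak. Against the canonical end of SLC6A2, a comparison added after the data were seen, the ratio was 0.647, the highest of the 6 and above that median, and for the other 5 genes the canonical end was the strongest. With these pileups the intervals overlapped for some genes, as for DDC, where 12 has an interval of 6.2 to 21 and 21 one of 13 to 32.1.

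Oligo(dT) can prime on A-rich stretches of a transcript as well as on a poly(A) tail, so the 10 genomic bases past the 3′ edge were read. At least 7 of them were A at 19 of the 31 intronic peaks (61.3%, 43.8 to 76.3), against 66.8% of the 115058 intronic peaks of all genes, a share inside that interval. By gene these were 8 of 9 in GCH1, 5 of 6 in DDC, 5 of 9 in SLC6A2 and the single peak of CHGB. In CHGA none of 3, in DBH none of 2 and in SLC18A2 not the single peak had 7 A on the strand of the gene.

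The strongest A-rich intronic peaks of 4 genes are shown with the sequence around their edges, 40 bases on the strand of the gene with the 10 bases past the edge in capitals. They lie at chr7:50491302-50491341 (minus, DDC intron 9), chr14:54849963-54850002 (minus, GCH1 intron 3), chr16:55675759-55675798 (plus, SLC6A2 intron 4) and chr20:5918800-5918839 (plus, CHGB intron 3) of GRCh38.
DDC intron 9: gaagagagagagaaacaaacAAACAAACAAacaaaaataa
GCH1 intron 3: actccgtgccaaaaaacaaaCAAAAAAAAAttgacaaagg
SLC6A2 intron 4: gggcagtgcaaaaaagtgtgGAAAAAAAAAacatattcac
CHGB intron 3: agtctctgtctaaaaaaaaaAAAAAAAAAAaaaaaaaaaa

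Their pileups were 12 (6.2 to 21) in DDC, 11 (5.49 to 19.7) in GCH1, 11 (5.49 to 19.7) in SLC6A2 and 14 (7.65 to 23.5) in CHGB. The CHGB edge lies inside a run of A. A run of 25 bases with at most 3 other than A, beside a peak with none of the 12 hexamers in the 100 bp upstream, was the study's mark of a false peak, and in the set it applied to this peak and to 1 peak of GCH1 intron 2.

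Peaks with few A on the gene's strand were read on the other strand as well. Of the 12 such intronic peaks, 4 had at least 7 A past their other edge on the opposite strand, both of DBH, 1 of GCH1 and the single intronic peak of SLC18A2. Of these 4, the SLC18A2 peak and the DBH peak in intron 9 also had AATAAA or ATTAAA upstream of that edge on the opposite strand. The GCH1 peak and the DBH peak in intron 5 did not. The GCH1 peak in intron 1 and the DBH peaks are shown on the strand opposite to the gene, at chr14:54867580-54867619 (plus), chr9:133646122-133646161 (minus, intron 5) and chr9:133654087-133654126 (minus, intron 9), with the 10 bases past that edge in capitals.
GCH1 intron 1, opposite strand: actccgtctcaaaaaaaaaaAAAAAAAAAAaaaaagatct
DBH intron 5, opposite strand: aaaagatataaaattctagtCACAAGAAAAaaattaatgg
DBH intron 9, opposite strand: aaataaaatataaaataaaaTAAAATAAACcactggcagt

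The DBH peak in intron 9 also lay 479 bp past the annotated end of DBH-AS1, a noncoding RNA of the opposite strand, inside its end window. Counted on either strand, 23 of the 31 intronic peaks (74.2%, 56.8 to 86.3) had A-rich sequence, against 71.8% over all genes. The remaining 8 peaks had fewer than 7 A on both strands and comprised 4 of SLC6A2, 3 of CHGA and 1 of DDC. The DDC peak, in intron 9, had AATAAA or ATTAAA upstream of its other edge on the opposite strand.

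The peak in intron 4 of CHGA was the strongest intronic peak of the set and the only 1 of the 31 with a pileup of at least 20. It lay 5.44 kb from the start of the gene with a pileup of 22 (13.8 to 33.3) and a −log10 q of 20.2. Its sequence is given because it carries a main signal and has no A-rich sequence past the edge. The first line below holds ATTAAA in capitals, 31 bp upstream of the edge, at chr14:92928660-92928689, and the second line has the 10 bases past the edge in capitals, at chr14:92928672-92928711, both on the plus strand of GRCh38.
CHGA intron 4, signal: ATTAAAtagactgtcaacagagactattat
CHGA intron 4, edge: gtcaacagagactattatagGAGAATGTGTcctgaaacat

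These 10 bases hold 3 A. The other intronic peaks of CHGA lay in intron 1, with a pileup of 9 (4.12 to 17.1) and 3 A, and in intron 5, with 12 (6.2 to 21) and 6 A, and neither had AATAAA or ATTAAA. No annotated end of a CHGA transcript has the intron 4 summit in its window.

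AATAAA or ATTAAA lay 10 to 40 bp upstream of 5 of the 31 intronic peaks (16.1%, 7.09 to 32.6), against 13.8% over all genes. The peaks of DDC intron 9 (pileup 4) and GCH1 intron 1 (pileup 10) among them also had 8 and 7 A past the edge. The peaks of CHGA intron 4, DBH intron 5 and SLC6A2 intron 4 had 3, 1 and 2 A on the strand of the gene. The last 30 bases before the edge of the latter peaks, which had pileups of 6 (2.2 to 13.1) in DBH and 9 (4.12 to 17.1) in SLC6A2, are given with ATTAAA in capitals, at chr9:133646213-133646242 and chr16:55673202-55673231, both on the plus strand.
DBH intron 5: ctgtgaATTAAAaccccttgtcaatttcac
SLC6A2 intron 4: ATTAAActgtggttatgcattttggcgtga

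The DBH peak in intron 5 is the same peak whose opposite strand is A-rich, so the list leaves it with a signal on the strand of the gene and an A-rich edge on the other. Of the intronic peaks of the set, then, CHGA intron 4 and SLC6A2 intron 4 combined a main signal on the strand of the gene with fewer than 7 A on both strands. The share of intronic peaks with that combination over all protein-coding genes was not computed, so these peaks do not set the genes apart.

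GAGACTC, a run found near the 3′ end of Alu repeats, was searched on the strand of the gene in the 40 bp upstream of the edge. It lay upstream of 3 of the 31 intronic peaks (9.68%, 3.35 to 24.9), against 7.70% over all genes, and of none of the 15 end peaks. They were a DDC peak in intron 1 and GCH1 peaks in introns 1 and 2, each with a pileup of 5 (1.62 to 11.7). No repeat annotation was used, so their class was not assigned.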

How the data were processed

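Poly(A) 3′-seq libraries of IMR-32 cells were made by the authors with an oligo(dT)-primed 3′ mRNA kit. The authors trimmed the reads, mapped them to GRCh38 with STAR 2.5.1b, downsampled the libraries, which came from batches of differing quality, to the smallest, and merged them. Peaks were called by the authors with MACS2 2.1.1 on the merged reads, extended to 100 bp. Each deposited fold is the ratio of pileup plus a pseudocount to local background plus the same, and the deposited p-values and q-values are the −log10 of a Poisson test against that background. The score deposited by the authors was not analysed.

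Pileups were recovered as the whole number that gives both the fold and the p-value, which missed the deposited −log10 p by at most 0.000168. The list names no strand, so peaks took the strand of the gene, and 3 of the 49 had a gene of the opposite strand at the summit. Shares have 95% Wilson intervals, and no test was run. All 10 genes were described, with the highest and lowest gene of each pathway list, except that some list genes and a sequence are not reported here. The members, lists, windows and limits were chosen with earlier results of these data known. Chosen after their values were seen were the further list genes named, the sequences at coding and opposite-strand peaks, and the searches of the opposite strand. Steps were tested on simulated data. Python 3.11.15, numpy 2.4.6, scipy 1.17.1, pandas 2.3.3, pysam 0.24.0, statsmodels 0.14.6 and matplotlib 3.10.9 were used.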

Additional observations from a re-analysis of the deposited data

How the results depend on the processing

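No paired analysis was possible because the peak list pools all libraries and gives no value per replicate. Of 33 alternative settings of the counts, shares and densities, 23 stayed within the counting interval of the share or within 1.5 times the count or density, and 10 did not. With a −log10 q of at least 20, 9 of the 49 peaks were left, 11.1% of them in introns, 0.0312 per 10 kb of intron, and 0% of the single intronic peak left was A-rich. With a −log10 q of at least 5 the intronic density was 0.531 per 10 kb, and without peaks next to 7 or more A it was 0.375. The share of A-rich intronic peaks was 77.4% with a limit of 6 A and 6.45% with a stretch of 25 bases. The share of end peaks with AATAAA or ATTAAA was 20% when searched from the summit, which lies inside the transcript, and 88.9% for canonical ends alone, a setting added after the data were seen. Fewer peaks enter the stricter thresholds by construction. For the other changes the cause was not tested. Of 18 alternative settings of the pileups, 14 stayed within the Poisson interval, and those that did not were SLC6A2 at 17 by its canonical end, and SLC6A2 at 73, CHGB at 52 and SCG2 at 83 by the sum of end peaks. By the sum, CHGA moved from place 1 to 4, behind SCG2, SLC6A2 and CHGB. By the deposited fold, CHGA and SCG2 kept places 1 and 2, TH moved from place 6 to 3 and CHGB from 4 to 7. The pooled list limits all values to counting error.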

Other observations

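Beyond the 600 bp past their 3′ ends, 2 genes of the set had peaks up to 5000 bp away, and all 3 of these peaks lie within genes of the opposite strand. SLC18A2 was followed by peaks with pileups of 24 at 1119 bp and 29 at 3233 bp, both within PDZD8. CHGA was followed by a peak of 29 at 4596 bp, within ITPK1. None of the 3 had AATAAA or ATTAAA 10 to 40 bp upstream of the edge on the strand of the gene of the set.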
